A study of Homo sapiens with 6 samples.

Results

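The surface antigens of myeloma cells were described in KMM1, an established line of human myeloma cells, with and without TAZ delivered by virus. The set holds 10 genes of the 57290 in the files, chosen by gene symbol: the plasma cell antigens SDC1, SLAMF7, CD38, TNFRSF17, GPRC5D, FCRL5 and LY9, and the receptors CD28, CD44 and NCAM1. Polyadenylated RNA was sequenced from 6 libraries taken 4 days after lentiviral transduction. In 3 libraries the virus carried TAZ, the Hippo pathway co-activator encoded by WWTR1, and in the 3 control libraries it carried the empty vector WPI. Cells of both groups were transduced, all come from this 1 line, and no source used here gives the promoter that drives TAZ. Whether libraries of a group stem from separate cultures is not in the labels, and p-values then measure only the spread among these libraries, which may be technical. The comparison asks whether antigens by which myeloma cells are recognised and treated change when TAZ is expressed.

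Plasma cells lose most B cell receptors and display a small set of proteins that antibodies and engineered T cells can reach. Several of these are targets of approved or tested drugs: elotuzumab binds SLAMF7, daratumumab binds CD38, CAR T cells and bispecific antibodies bind the TNFRSF17 product BCMA, talquetamab binds GPRC5D and cevostamab binds FCRL5. SDC1, or CD138, is the heparan sulfate proteoglycan used to identify and sort plasma cells. CD28, CD44 and NCAM1 (CD56) are receptors that myeloma cells can carry and that bind partners in the bone marrow.

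The 10 genes fell into 3 classes of level in TPM, a transcript's length-corrected share of its library, which allows genes to be compared and was here scaled between libraries. SDC1, SLAMF7, CD28 and TNFRSF17 were abundant, with control means of 197, 175, 111 and 49.0 scaled TPM. CD38, GPRC5D and LY9 were low, at 5.88, 4.63 and 2.75. FCRL5, NCAM1 and CD44 had 0.668, 0.216 and 0.00507 and lay under the mean of 1 TPM needed for a test. In the controls SDC1 and SLAMF7 overlapped, as did CD38 and GPRC5D, while all other neighbours in this order were separate. Some gaps were narrow: the lowest SLAMF7 control had 118 against 112 in the highest of CD28, and GPRC5D had 3.84 against 3.65 of LY9. The CD28 value of control library 1 depended on the transcript to which its reads were assigned, as described below. In the TAZ libraries CD28 came first, and every one of its libraries lay above every library of SDC1.

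**Figure D1:**
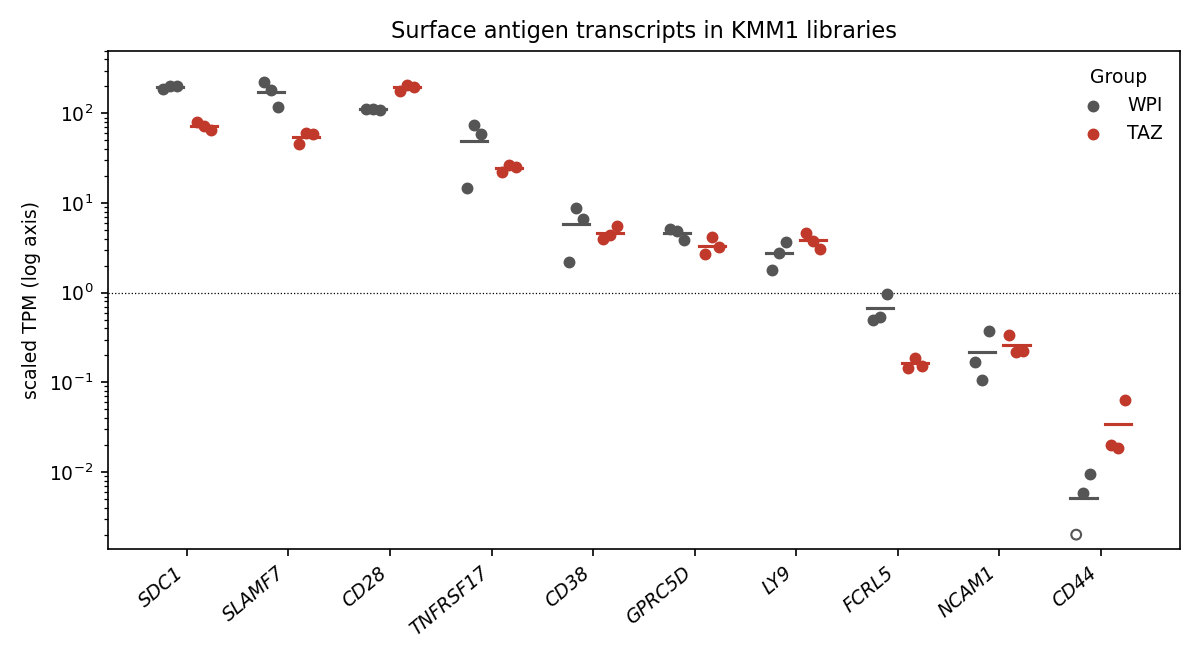
Scaled TPM (log axis) of the 10 genes in each library, with 3 control (WPI, grey) and 3 TAZ (red) libraries and a bar at each group mean; the dotted line marks 1 TPM and the open circle a library listed at 0. SDC1 and SLAMF7 sit lower and CD28 sits higher in all 3 TAZ libraries than in any control library.

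Of the 7 tested genes, 2 fell, SDC1 and SLAMF7, and 1 rose, CD28 (limma, Benjamini-Hochberg adjusted p under 0.05 over 19390 tested genes). Over all tested genes 3.21% were called, 2.25% higher and 0.964% lower. An unadjusted p under 0.05 (limma) was reached by 3483 of the 19390, the background for such counts below. The groups did not overlap for these same 3 of the 7, while 24.9% of all tested genes showed no overlap, 10.1% higher and 14.8% lower. The median log2 difference of the 7 was -0.38 and that of all tested genes -0.05. Without scaling between libraries the latter moved to 0.17, and the called genes went from 436 higher and 187 lower to 533 and 85. The genes were proposed with results of these data known, so these counts describe them and are no independent evidence.

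The transgene was present where the labels put it: WWTR1 stood at 365, 138 and 145 scaled TPM in the TAZ libraries and at 2.35, 1.21 and 1.40 in the controls. Depth ran from 1099.95 to 2033 megabases of aligned sequence per library. Control library 3 stood apart from the other libraries on the second principal component, at -74.8 where the remaining 5 lay between -1.42 and 37.6. Without it SDC1 and SLAMF7 were called and CD28 was not (limma adjusted p = 0.0157, 0.0113 and 0.0648). All 10 listed plasma cell markers outside the set were measured above the test's minimum, and all 7 B cell markers lay under 1 scaled TPM in every library. Of 8 T and NK cell markers 7 lay under 1 in every library, with NKG7 listed at 0 throughout. Of 7 myeloid markers 5 did so, with S100A9 listed at 0. In bulk RNA, fewer cells with a transcript and less of it per cell cannot be told apart.

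SDC1 (ENSG00000115884.6, chromosome 2, 20400558 to 20425194, minus strand, hg19) was measured at 185, 204 and 201 scaled TPM in control libraries 1, 2 and 3. In the TAZ libraries it was 79.6, 72.7 and 65.5. The highest TAZ library was thus below the lowest control, and the spread within each group was small. The mean went from 197 ± 9.97 to 72.6 ± 7.05 (SD, n = 3 per group), 2.71-fold lower, with a log2 difference of -1.43 (95% interval -1.80 to -1.05; limma adjusted p = 0.00521). SDC1 was called in 16 of 17 alternative analyses, with log2 differences between -1.50 and -1.17. Its transcript ENST00000254351.4 held at least 99.74% of the gene's TPM in every library.

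SDC1 has a pair of annotated first exons, and the deposited exon depths were used to see which start carried the signal. Values are aligned kilobases over the exon per gigabase aligned in the library. The upstream first exon (20425023 to 20425194) had 0, 0.443 and 0.439 in the controls and 0 in all 3 TAZ libraries. The downstream first exon (20424563 to 20424873) had 3.39, 0.198 and 9.45 in the controls and 4.38, 3.77 and 3.18 with TAZ, and these ranges overlap. Most aligned bases lay in the last exon (20400558 to 20402696), which held 76.5% to 98.7% of the gene's bases. There the controls had 294, 264 and 239 and the TAZ libraries 97.1, 99.4 and 95.2, so the groups were as separate as over the whole gene. The exon at 20403574 to 20404052 had 0.321 in control library 1, against 54.1 and 62.3 in controls 2 and 3 and 25.5, 25.2 and 23.0 with TAZ.

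The RefSeq sequence in front of the downstream SDC1 start is shown because that start carried more signal in 5 of the 6 libraries and SDC1 had the lowest adjusted p of the set. It lies at chr2:20225131-20225261 (GRCh38.p14, minus strand, another build than the hg19 coordinates of the files), reads 5′ to 3′ up to the base before the start, and stops where the exon of the upstream start begins.
SDC1, downstream start: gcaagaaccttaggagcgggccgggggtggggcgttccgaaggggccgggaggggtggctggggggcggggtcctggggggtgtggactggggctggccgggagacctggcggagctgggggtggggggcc
Of these 131 bases 77.9% are G or C. The full window of 250 bases before this start, used for the motif search, has 75.2%, and over all 35116 promoter windows the median was 58%. SLAMF7, TNFRSF17, LY9 and NCAM1 had no RefSeq window before the start, so no motif was looked for there. RefSeq windows of 250 bases before the start were found for 6 of the 10 genes (7 windows, with 2 for SDC1). They were searched on both strands for GGAATG, the core of the TEAD site through which TAZ acts, for CACGTG (the E-box bound by MYC), TGANTCA (AP-1), the interferon response element and the ETS-IRF composite element, which can overlap each other. The first 4 motifs were in none of the 7 windows, and 11.9%, 6.34%, 6.57% and 3.02% of all windows hold them.

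The ETS-IRF motif, held by 2.41% of all windows, was in the windows of CD28 and CD38. They are shown with the motif in capitals and up to 10 bases on each side. The reason is that IRF4, a plasma cell factor known to bind such sites, was among the listed genes that fell. That call (limma adjusted p = 0.0421) was kept in only 8 of 17 alternatives. The CD28 match is on the reverse strand at chr2:203706615-203706638, and the CD38 match is on the forward strand at chr4:15778275-15778304 (both GRCh38.p14, plus strand shown).
CD28: caggtgcgtcTTTCAGTTCCcctc
CD38: gttgggggtgGGAAGGGAAAcagagaaaag
A match of letters is a description and no evidence of binding. CD28 rose and CD38 did not pass the test. The limma interval of the CD38 log2 difference, -1.15 to 0.86, includes the CD28 value of 0.81. The missing call therefore does not show that CD38 responded differently from CD28. Whether the motif or IRF4 has a part in the level of either gene was not tested.

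SLAMF7 (ENSG00000026751.12, chromosome 1, 160709037 to 160724611) encodes CS1, a receptor of the SLAM family. It had 224, 183 and 118 scaled TPM in control libraries 1, 2 and 3 and 46.0, 60.5 and 58.9 in the TAZ libraries. The controls spread widely, and the lowest of them, control 3, was still above every TAZ library. The mean went from 175 ± 53.3 to 55.1 ± 7.96 (SD, n = 3), 3.18-fold lower, with a log2 difference of -1.61 (95% interval -2.26 to -0.96; limma adjusted p = 0.0302). The direction was the same in all 17 alternatives, but only 8 called it. Leaving out any 1 library other than control 3 ended the call (adjusted p from 0.0738 to 0.121), as did omitting the scaling (adjusted p = 0.0918).

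Part of the SLAMF7 signal was assigned to a short transcript, ENST00000488819.1 (524 bases, covering the 5′ part of the gene). It had 39.0, 48.6 and 0 scaled TPM in the controls and 0, 12.3 and 0 with TAZ, so it was present in 3 libraries and listed at 0 in the other three. The leading transcript ENST00000368043.3 alone had 184, 120 and 118 in the controls and 46.0, 48.2 and 58.3 with TAZ, again without overlap. Its share of the gene's TPM ran from 65.4% to 100% in the controls and from 79.7% to 100% with TAZ (exact two-sided permutation p = 0.7). Counted as aligned bases per megabase on transcripts, a value that does not depend on transcript length, SLAMF7 had 354, 267 and 206 in the controls and 83.9, 104 and 125 with TAZ. Values in that unit are listed before scaling between libraries, and tests in it were run after that scaling. In that unit, chosen after seeing the data, the limma adjusted p was 0.00962.

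SLAMF7 and LY9 sit in a row of SLAM receptor genes on chromosome 1, in which CD48, the ligand of CD244, lies on the other side of SLAMF7. CD48 (ENSG00000117091.5, 160648536 to 160681641, minus strand) had 308, 337 and 282 scaled TPM in the controls and 88.5, 90.6 and 102 with TAZ. All TAZ libraries were below all controls, the mean was 3.30-fold lower, and the log2 difference was -1.71 ± 0.16 (SE; limma adjusted p = 0.00289). CD48 was called in 17 of 17 alternatives. The other 4 SLAM receptors of the row, SLAMF6, CD84, SLAMF1 and CD244, did not exceed 0.157 scaled TPM in any library.

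LY9 (CD229; ENSG00000122224.13, 160765864 to 160798051), 41.3 kb beyond the end of SLAMF7, had 1.81, 2.79 and 3.65 scaled TPM in the controls and 4.65, 3.76 and 3.08 with TAZ. The groups overlapped, and the log2 difference of 0.38 did not pass (95% interval -0.21 to 0.97; limma adjusted p = 0.457). The intervals of SLAMF7 and LY9 do not overlap, though the difference between the 2 genes was not tested. LY9 signal was thin, with 3273 to 7313 aligned bases per library, and 7 of its 14 transcripts held at least 10% of it in some library. In aligned bases per megabase before scaling between libraries, all TAZ values (6.08, 4.14 and 4.27) were above all controls (2.55, 2.75 and 4.04). The nearest pair was close, and whether the groups stay separate after scaling was not examined. After scaling, the log2 difference in this unit was 0.38 ± 0.26 (SE) and did not pass (limma adjusted p = 0.448).

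**Figure D2:**
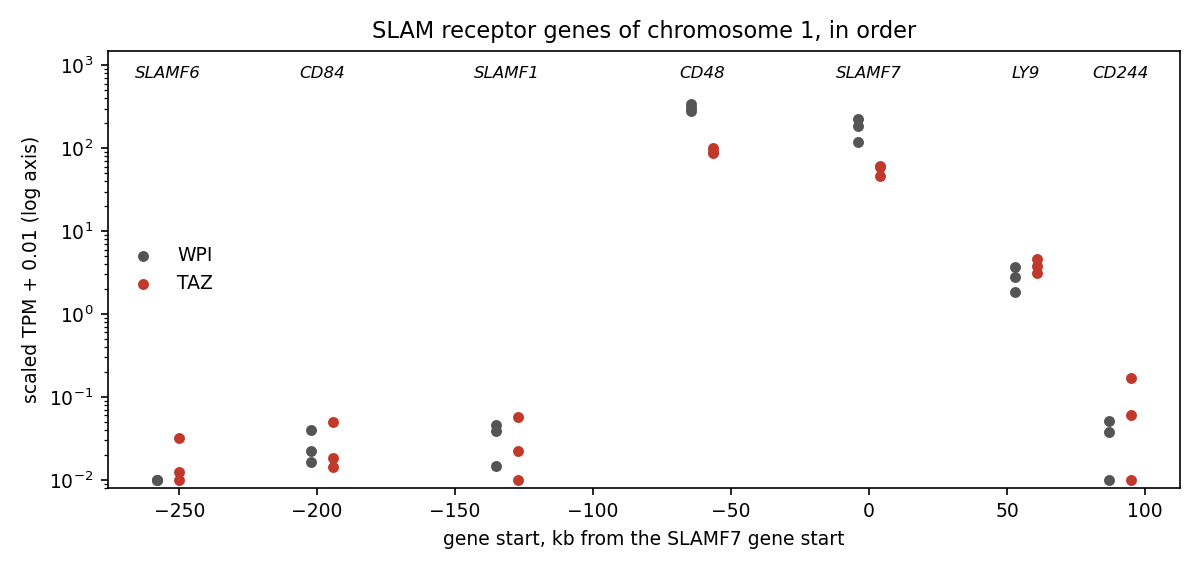
Scaled TPM plus 0.01 (log axis) of 7 SLAM receptor genes against the distance of their gene start from that of SLAMF7 in kilobases, 3 control (WPI, grey) and 3 TAZ (red) libraries each. CD48 and SLAMF7 lie lower with TAZ, LY9 overlaps between groups, and the other 4 genes stay at or below 0.157 scaled TPM.

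CD28 (ENSG00000178562.13, chromosome 2, 204571198 to 204603635) is the costimulatory receptor of T cells, and myeloma cells can express it as well. It had 112, 112 and 109 scaled TPM in the controls and 180, 209 and 198 with TAZ. Every TAZ library was above every control, with a mean that went from 111 ± 1.61 to 196 ± 14.7 (SD, n = 3), 1.76-fold higher. The log2 difference was 0.81 (95% interval 0.45 to 1.17; limma adjusted p = 0.0421). The call was ended by leaving out any 1 of the 6 libraries (adjusted p from 0.0522 to 0.216), and 8 of 17 alternatives kept it, all with the same direction.

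The small spread of the CD28 controls depended on the transcript to which reads were assigned. In control library 1 all of the signal was given to ENST00000324106.8 (4812 bases) and in the other 5 libraries to ENST00000374481.3 (3555 bases). In aligned bases per megabase the controls were 370, 266 and 252 and the TAZ libraries 434, 567 and 559. In these values, which are not scaled between libraries, the groups were still separate, and control 1 stood nearer to the TAZ libraries than its TPM shows. In the test of this unit, which used scaled values, the rise did not pass (log2 difference 0.67 ± 0.18 (SE), limma adjusted p = 0.101). Markers of T and NK cells were low and went different ways. CD8A had 0.897, 1.29 and 1.24 scaled TPM in the controls and 2.05, 1.87 and 1.85 with TAZ (limma adjusted p = 0.262, unadjusted p = 0.0420). Too low for a test, GNLY was at 0.0627 ± 0.109 and 0.657 ± 0.219, higher without overlap, and CD3E at 0.695 ± 0.304 and 0.282 ± 0.00764, lower without overlap. CD3D did not exceed 0.0667 in any library. The summed level of all 8 markers was 1.99 to 2.59 in the controls and 2.90 to 3.53 with TAZ, and their part in the CD28 difference was not tested. Of the CD28 partners, the ligand CD80 had 1.04 ± 0.278 in the controls and 0.188 ± 0.119 with TAZ, and CD86 had 0.349 ± 0.0372 and 0.621 ± 0.142, both untested for their low level.

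**Figure D3:**
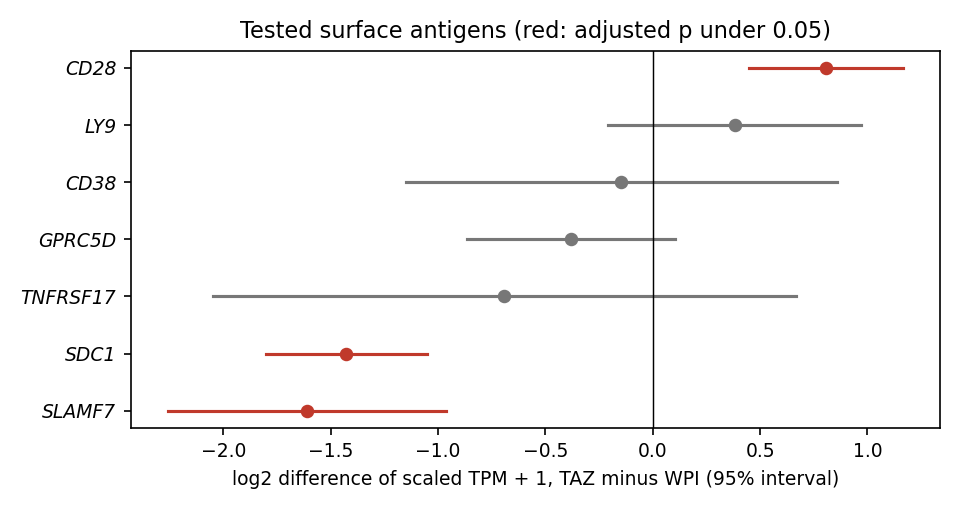
Log2 difference of scaled TPM + 1, TAZ minus control (WPI), with its 95% interval from limma for the 7 tested genes; red marks an adjusted p under 0.05. SLAMF7 and SDC1 lie below 0 and CD28 above it, while the interval of TNFRSF17 runs from -2.05 to 0.67.

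TNFRSF17 (ENSG00000048462.6, chromosome 16, 12058964 to 12061925) encodes BCMA, the receptor of the plasma cell survival factors APRIL and BAFF. It had 14.8, 73.7 and 58.5 scaled TPM in control libraries 1, 2 and 3 and 22.1, 26.5 and 25.2 with TAZ. Control library 1 was the lowest of all 6, and the other 2 controls were the highest. With all libraries the difference did not pass (log2 difference -0.69, 95% interval -2.05 to 0.67; limma adjusted p = 0.555). Without control library 1 it was -1.38 ± 0.20 (SE) and passed (adjusted p = 0.0319), the only 1 of 17 alternatives in which it did.

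The exons of TNFRSF17 show where control library 1 differed. In aligned kilobases per gigabase, the first exon (12058964 to 12059311) had 7.50, 9.33 and 5.83 in the controls and 2.94, 2.76 and 2.85 with TAZ, and there the groups did not overlap. The last exon (12061427 to 12061925) had 0.0158, 27.1 and 22.8 in the controls and 8.22, 12.0 and 11.9 with TAZ. Control library 1 thus stood with its group in the first exon and near 0 in the last. Both middle exons, of 147 and 124 bases, were listed at 0 in every library. Of 17 exon blocks of at most 150 bases in the 7 tested genes, 16 were listed at 0 in all libraries, against 3 of 30 longer blocks. The levels of these 7 genes rest mainly on their longer exons. NCAM1 differed, with signal in 9 of its 16 short blocks in at least 1 library.

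**Figure D4:**
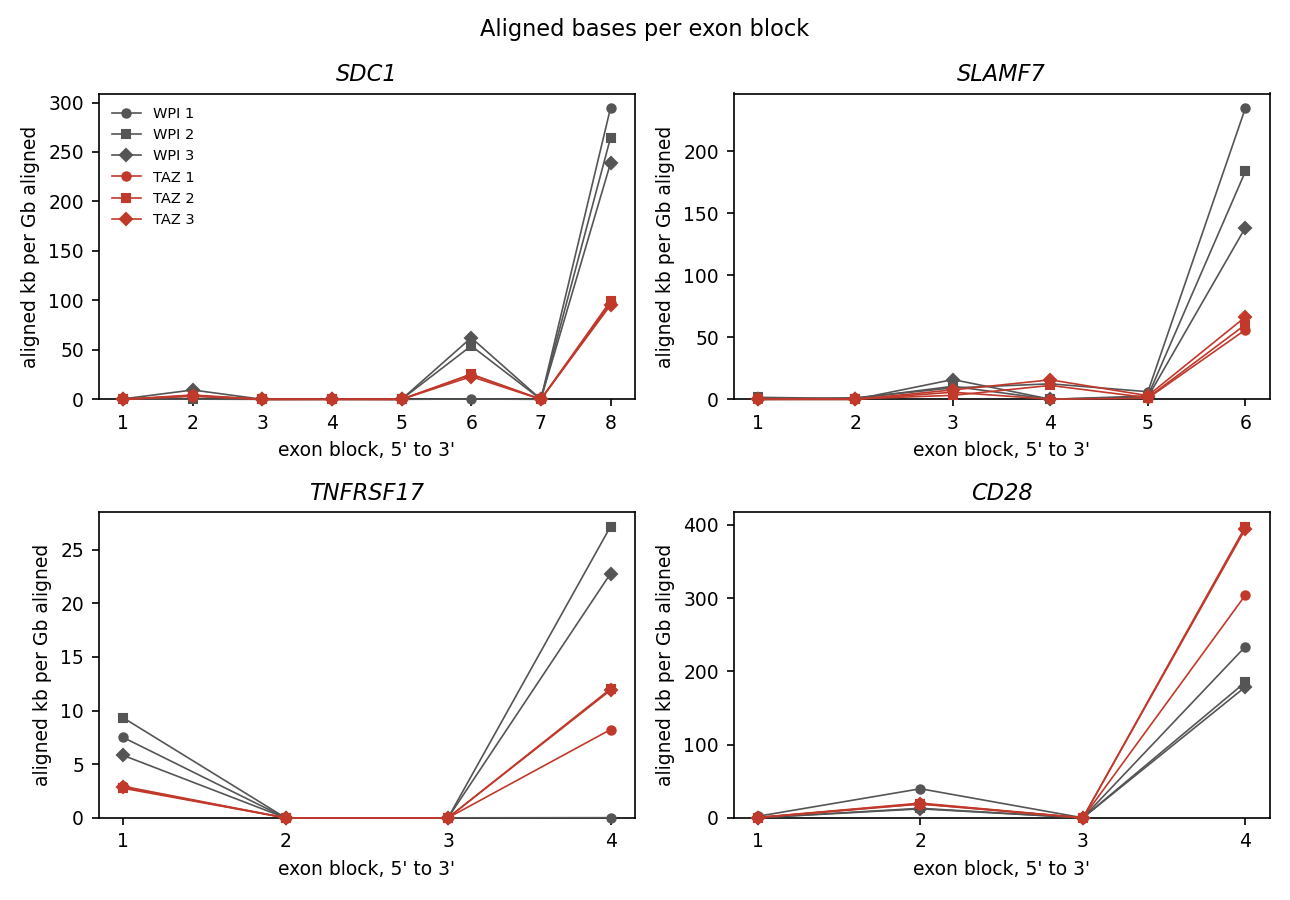
Aligned kilobases per gigabase of aligned sequence over each exon block (merged overlapping exons, numbered 5′ to 3′) of SDC1, SLAMF7, TNFRSF17 and CD28, one line per library (control WPI grey, TAZ red). Most signal is in the last block, and control library 1 (grey circle) has 0.0158 there for TNFRSF17.

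Around BCMA, none of 9 tested ligands, sister receptors and gamma-secretase subunits, the protease that sheds BCMA, passed (limma; 1 at unadjusted p under 0.05). That one was TNFRSF13B (TACI), at 5.75, 5.94 and 7.25 in the controls and 4.97, 2.52 and 2.72 with TAZ (adjusted p = 0.190). The most abundant subunits were APH1A, at 206, 21.1 and 247 in the controls and 238, 218 and 229 with TAZ, and PSENEN, at 106 ± 38.3 and 85.5 ± 29.8. The ligand genes TNFSF13 and TNFSF13B were low, at 1.62 ± 0.199 and 0.313 ± 0.165 in the controls.

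CD38 (ENSG00000004468.8, chromosome 4, 15779898 to 15854853) is an ectoenzyme that consumes NAD. It had 2.20, 8.75 and 6.70 scaled TPM in the controls and 3.96, 4.46 and 5.56 with TAZ, so the TAZ libraries lay within the range of the controls. The log2 difference was -0.15 (95% interval -1.15 to 0.86; limma adjusted p = 0.880). Its sign was not stable: it was 0.18 without control library 2, 0.01 without control library 3, and 0.36 in aligned bases per megabase. It was 0.079 without scaling between libraries. In control library 2 the signal was given to a pair of short transcripts of 1560 and 1672 bases, and in the other 5 libraries mostly to the full transcript ENST00000226279.3 of 5668 bases. By aligned bases per megabase the controls had 8.54, 9.28 and 24.6 and the TAZ libraries 15.2, 19.2 and 21.2. The first exon (15779898 to 15780270) alone was lower with TAZ, at 1.26, 0.747 and 0 aligned kilobases per gigabase against 2.99, 2.32 and 3.04, while the last exon overlapped between groups. Of the other nucleotide ectoenzymes, ENTPD1 (7.61 ± 1.27 to 5.26 ± 0.332) and ENPP1 (1.43 ± 0.155 to 2.45 ± 0.401) were tested and did not pass (limma adjusted p = 0.250 and 0.226). Both had an unadjusted p under 0.05, as did 3483 of all 19390 tested genes.

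GPRC5D (ENSG00000111291.4, chromosome 12, 13093709 to 13105081, minus strand) is an orphan receptor of plasma cells. It had 5.19, 4.88 and 3.84 scaled TPM in the controls and 2.69, 4.14 and 3.20 with TAZ, and TAZ library 2 lay above control library 3. The log2 difference of -0.38 did not pass (95% interval -0.86 to 0.10; limma adjusted p = 0.373), nor did it in any of 16 alternatives. Its relatives GPRC5A, GPRC5B and GPRC5C were too low for a test. GPRC5A had 0.0277 ± 0.0246 in the controls and 0.941 ± 0.470 with TAZ, and no TAZ library fell within the range of the controls.

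FCRL5 (ENSG00000143297.14, chromosome 1, 157483167 to 157522310, minus strand), an Fc receptor-like protein of B lineage cells, had 0.494, 0.540 and 0.971 scaled TPM in the controls. With TAZ it had 0.146, 0.188 and 0.153. The groups were separate at a very low level, with 572 to 2940 aligned bases per library (exact two-sided permutation p = 0.1, which is the lowest this design can reach). It was left out of the test by its mean of 0.400 TPM. With no filter its log2 difference was -0.51 ± 0.16 (SE; limma adjusted p = 0.372). In aligned bases per megabase, where the long transcript lifts it over the filter, it was -1.09 with an adjusted p of 0.0491. None of the other 7 FCRL genes reached 1 scaled TPM in any library.

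NCAM1 (ENSG00000149294.12, chromosome 11, 112831997 to 113149158), the adhesion molecule CD56, had 0.169, 0.106 and 0.372 scaled TPM in the controls and 0.334, 0.218 and 0.225 with TAZ. The groups overlapped (exact permutation p = 0.6). CD44 (ENSG00000026508.12, chromosome 11, 35160417 to 35253949), the hyaluronan receptor, had 0, 0.00576 and 0.00946 in the controls and 0.0201, 0.0185 and 0.0631 with TAZ. These values rest on 0 to 182 aligned bases per library, so no fold is given. With no filter on low values neither gene passed (limma adjusted p = 0.858 and 0.568).

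Around CD44, 0 of 7 tested genes passed (limma; 0 at unadjusted p under 0.05), among them EZR, a linker of CD44 to actin (145 ± 43.7 to 205 ± 19.1), and its relative MSN (137 ± 4.37 to 144 ± 11.7). Around SDC1, 2 of 13 tested genes rose and 0 fell, where 2.25% of all tested genes rose and 0.964% fell. An unadjusted p under 0.05 (limma) was reached by 4 of the 13, with 3 higher and 1 lower. The gene TIMP3, an inhibitor of the proteases that shed syndecans, rose from 0.519 ± 0.104 scaled TPM to 6.44 ± 0.429 (SD, n = 3; adjusted p = 0.00113 by limma) and was called in 16 of 16 alternatives. SDC2, another syndecan, rose from 0.461 ± 0.237 to 2.26 ± 0.329 (adjusted p = 0.0385), a call kept in 7 of 15 alternatives and ended by leaving out any 1 library but control 3 (0.0726 to 0.187). SDC4, a syndecan found on many cell types, was at 49.3 ± 2.95 and 74.1 ± 4.35 (adjusted p = 0.112), which with TAZ is close to the 72.6 ± 7.05 of SDC1, and EXT2, an enzyme of heparan sulfate synthesis, at 58.1 ± 5.73 and 38.9 ± 3.78 (adjusted p = 0.151). Around CD28, 0 of 6 tested genes passed (0 at unadjusted p under 0.05), with GRB2, a signalling adaptor, at 28.4 ± 10.2 and 17.9 ± 8.19. The ligand gene ICOSLG had 10.5, 7.95 and 9.05 in the controls and 15.4, 11.2 and 9.95 with TAZ.

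Among 20 tested further surface proteins that have been targeted in myeloma or B cell disease, 2 rose and 3 fell. An unadjusted p under 0.05 (limma) was reached by 9 of the 20, with 7 lower and 2 higher. CD46, a complement regulator, rose from 5.98, 4.15 and 9.11 scaled TPM to 27.6, 37.0 and 38.0 (adjusted p = 0.00858 by limma), and ITGB7, the integrin beta chain of gut and marrow homing, from 160 ± 49.7 to 865 ± 417 (adjusted p = 0.0302). The interleukin 6 receptor gene IL6R fell from 8.57 ± 0.510 to 1.82 ± 0.166 (adjusted p = 0.00247) and the chemokine receptor gene CXCR4 from 33.9 ± 11.8 to 5.60 ± 0.825 (adjusted p = 0.00965). LILRB4, an inhibitory receptor, fell from 7.31 ± 2.22 to 1.87 ± 0.0872 (adjusted p = 0.0258). IL6R was called in 17 of 17 alternatives, CD46 and CXCR4 in 15, ITGB7 in 11, and LILRB4 in 10 of 16. In aligned bases per megabase, tested after scaling, CD46 did not pass either (log2 difference 1.75 ± 0.45 (SE), limma adjusted p = 0.0958). Without TAZ library 2 the calls of CD46 and CXCR4 ended (adjusted p = 0.0531 and 0.0547). Those of LILRB4 ended without control 2 or any 1 TAZ library (0.0733 to 0.123), and those of ITGB7 without control 1, control 2, TAZ 1 or TAZ 2 (0.0786 to 0.113). CD74, the most abundant of these genes in the controls, was at 614 ± 66.8 and 579 ± 85.5 (adjusted p = 0.832). Of 8 tested drug targets inside the cell, 0 passed (limma; 2 at unadjusted p under 0.05, XPO1 and MCL1), with the survival factor MCL1 at 240.3, 249.4 and 231 in the controls and 348, 323 and 315 with TAZ (adjusted p = 0.203) and PSMB5 at 334 ± 161 and 347 ± 67.1. Over all partner and family lists, 4 of 66 tested genes rose and 4 fell, or 12.1%, against 3.21% of all tested genes, with a median log2 difference of 0.01 against -0.05. These lists were chosen with results of these data known, so the larger share is a description of them.

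Other plasma cell genes moved with the antigens in part. Of 10 tested markers outside the set, 3 fell: IRF4 (443 ± 89.9 to 200.3 ± 19.2 scaled TPM, limma adjusted p = 0.0421), ELL2, which favours secretory immunoglobulin transcripts (105 ± 2.68 to 42.6 ± 3.92, adjusted p = 0.00686), and SEC11C, a signal peptidase subunit (200.2 ± 36.4 to 89.8 ± 10.4, adjusted p = 0.0326). Over all tested genes 0.964% fell. ELL2 was called in 15 of 17 alternatives, SEC11C in 9 and IRF4 in 8. At an unadjusted p under 0.05 (limma), 5 of the 10 markers were lower and 1 higher, where 3483 of all 19390 tested genes were under it in either direction. The folding enzyme gene TXNDC5 was at 2786 ± 297 and 1561 ± 156 (adjusted p = 0.0749), and IGJ, the immunoglobulin J chain, at 1147 ± 88.3 and 1841 ± 253 (adjusted p = 0.131). Markers of other cells moved as well. The 6 epithelial or packaging line markers summed to between 194 and 322 scaled TPM in the controls and between 958 and 2294 with TAZ; KRT8, with 120, 171 and 210 in the controls and 2217, 864 and 931 with TAZ, made up most of the sum with TAZ and rose, as did KRT18. EPCAM was at 53.3 ± 27.1 and 49.1 ± 5.91, and KRT19 did not exceed 0.113. CDH1 was lower without overlap, at 48.7 ± 10.5 and 25.2 ± 7.08, and did not pass (limma adjusted p = 0.161, unadjusted p = 0.0132). The 7 fibroblast and stroma markers summed to 2.29 to 3.01 and 37.9 to 44.9. LUM and DCN rose, while COL1A1 was at 1.79 ± 0.320 and 1.73 ± 0.220. COL1A2 (0.0699 ± 0.0586 and 0.775 ± 0.222) and COL3A1 (0.0512 ± 0.00726 and 0.396 ± 0.0721) were too low for a test and higher with TAZ without overlap. PDGFRA and PDGFRB, also too low for a test, overlapped between groups. CD14, the one myeloid marker tested, fell (4.23 ± 0.866 to 1.51 ± 0.213, adjusted p = 0.0435), a call kept in 5 of 16 alternatives, and ITGAM, too low for a test, was at 1.07 ± 0.515 and 0.291 ± 0.170. The part of these genes in the antigen differences was not tested.

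Over the 6 libraries, the tested genes whose log2(scaled TPM + 1) followed SDC1 most closely were LINC01055, FNTAL1 and GAS7 (Pearson r = 0.998, 0.997 and 0.995). Those closest to SLAMF7 were CYP51P2, RP11-510C10.3 and CLEC1A (r = 0.999, 0.997 and 0.997). Of the 19390 tested genes, 85 and 69 had an r above 0.98 with SDC1 and SLAMF7. With 6 points in 2 separate groups, a high r can come from the group difference alone.

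**Figure D5:**
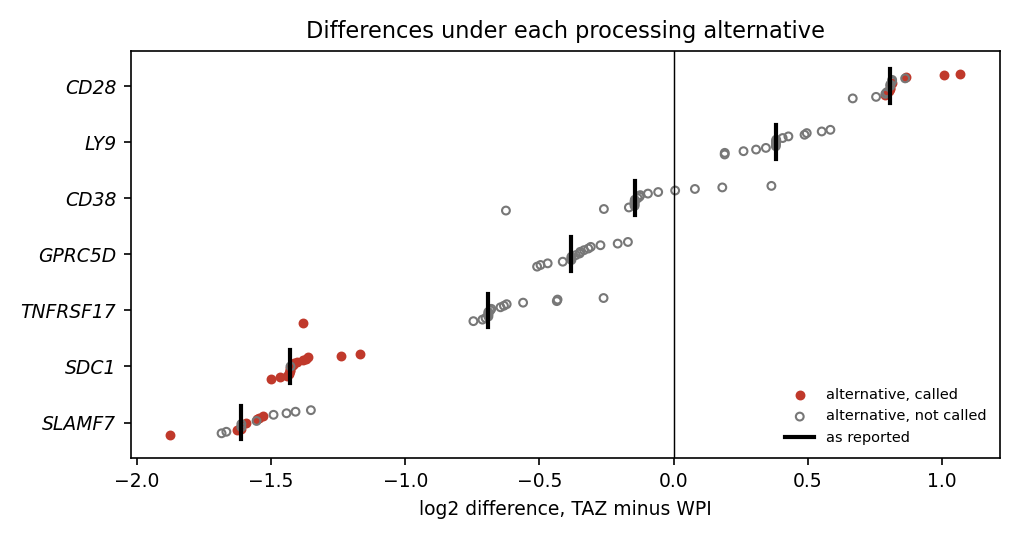
Log2 difference, TAZ minus control (WPI), of the 7 tested genes as reported (black bar) and under each alternative analysis (filled red where adjusted p was under 0.05, open where not). SDC1 stays called in 16 of 17, SLAMF7 and CD28 in 8 each, and CD38 crosses 0.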

How the data were processed

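Per the labels' protocols, 2 libraries shared each sequencing chip, and they do not say which. The submitters' processing notes name STAR 2.3.0, Bowtie2 2.0.0 and the build hg19, and per the file headers StringTie 1.3.3b estimated coverage, FPKM and TPM for supplied transcripts in each library. No source used here gives the annotation release or the use of strand, and StringTie spreads reads between overlapping transcripts. Deposited transcript TPM was summed per gene and divided by library factors of 0.873 to 1.23 (median of ratios, 28148 genes above 0 in every library). The test, TAZ minus WPI, took log2 of scaled TPM plus a pseudocount of 1 for genes whose mean TPM reached 1, and used limma 3.58.1 (R 4.3.3, trend and robust) with Benjamini-Hochberg adjustment. A fold on this scale understates changes of low genes. Exon blocks merge overlapping annotated exons. Tested on simulated data for 19389 genes, the procedure found 9% of 100 genes changed 2-fold and 75% of 100 changed 4-fold, with 5 false calls. The changes were placed only in genes above a set control level, which CD38, GPRC5D and LY9 did not reach. These rates therefore do not cover the low genes.

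The members and lists were chosen with earlier results of these data known. Named are the 10 members, WWTR1, in each list the called genes (at most 4 by adjusted p) and the 2 most abundant tested genes, and 3 genes closest to SDC1 and to SLAMF7. TNFRSF13B, TNFSF13, TNFSF13B, CD3D, CD3E, GNLY, NKG7, S100A9, ITGAM, CDH1, CD80, CD86, GPRC5A, XPO1, KRT19, COL1A2, COL3A1, PDGFRA, PDGFRB and the 4 silent SLAM genes were added after their values were seen. Aligned bases per megabase (deposited coverage times transcript length) was added as an alternative after seeing the data. Its values are listed before scaling between libraries, and its test used scaled values.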

Additional observations from a re-analysis of the deposited data

How the results depend on the processing

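In 17 alternatives, the count of called antigens, 3 as reported, was 1 with no filter on low values and 0 with the replicate block (limma; 3 at an unadjusted p under 0.05). Leaving out 1 library gave 1 to 2. The count over all genes was 352 with no filter and 236 with the replicate block against 623 as reported, and 278 to 774 with 1 library left out. Of the partner and family genes 8 were called as reported, 5 with no filter, 5 with a mean of at least 5 TPM (47 tested), 4 with the replicate block and 3 to 9 with 1 library left out. CD38 changed sign without scaling (0.079), in aligned bases per megabase (0.36), without control library 2 (0.18) and without control library 3 (0.01); with 1 library left out it ran from -0.62 to 0.18. The cause was not tested. Same-numbered libraries did not deviate together (r = 0.00, -0.02 and -0.05), so the numbers were not used as pairs. The median SE of 0.24 (log2) limits what the low antigens can show.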
